A study of Mus musculus with 6 samples.

Results

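Translation factors are the proteins that start and drive protein synthesis on the ribosome. The genes described here are those whose mouse symbols begin with Eif or Eef followed by a digit, the eukaryotic initiation and elongation factors with their subunits, kinases, binding proteins and modifying enzymes. They number 72 of the 25112 genes named in the table, and the rule reads only the symbols. One of them, Eif2c5, fits the name pattern only: it carries an older Argonaute-style symbol and is no translation factor. The cells were primary epidermal keratinocytes from wild type C57BL/6 mouse pups of postnatal days 1 to 3, grown in medium with 0.05 mM calcium, a low concentration that keeps keratinocytes dividing. They were transfected with pro-miR-148a at 200 nM (3 libraries) or with miR-Control (3 libraries), and RNA was taken after 48 h for sequencing. The titles of 2 of the 3 miR-148a libraries carry the same sample number with different replicate numbers (rep1 and rep3), so they may come from 1 sample, and every SE and adjusted p below rests on counting them as separate. The labels do not say whether the libraries of a group came from separate pups or cultures, so the p-values may measure technical spread only.

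Initiation begins when eIF2 carries the initiator tRNA to the small ribosomal subunit, helped by eIF1, eIF1A, eIF3 and eIF5. The eIF4F complex binds the mRNA cap, and the subunit complex scans to a start codon before eIF5B joins the large subunit. eEF1A then delivers each aminoacyl-tRNA, and eEF2 moves the ribosome along the mRNA. Cells control the process mainly at eIF2, through kinases that inactivate it under stress, and at the cap-binding protein eIF4E, through the 4E-BP proteins that hold it back. In dividing keratinocytes, protein synthesis supports growth, and hair follicle stem cells are known for holding it low.

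What was analysed is the authors' deposited table of the comparison, which has no value per library. Its rows are RefSeq transcripts, each with a base mean (the mean normalized count over the libraries), a log2 fold change with its standard error (SE), and an adjusted p. The depth of the libraries is unknown, and counting intervals cannot be had. Each gene is represented by its transcript row with the highest base mean, and 11038 genes had an adjusted p. Keratinocyte markers were present, with Krt5 at a base mean of 630448 by the authors' deposited table, while all 8 rows of Trp63 were listed at 0. Of 11 tested keratinocyte markers 2 were higher and 4 lower with miR-148a. Of 8 fibroblast markers 5 were lower with miR-148a and none was higher (median log2 fold change -0.36), and of 5 melanocyte markers tested 1 was lower. Of 3 immune markers tested 1 was higher (Csf1r, 0.76) and 2 lower (C1qa, -2.72, and Lyz2, -2.63). Of 2 endothelial ones 1 was higher (Kdr, 2.73) and 1 lower (Vwf, -0.81). The table gives no level per group for the markers. Whether these markers play a part in the translation factor values was not tested.

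Which group stands on top in the deposited fold changes is not stated in the table. A microRNA lowers the mRNAs whose 3' untranslated region (UTR) pairs with its seed, bases 2 to 8. The mature strand of miR-148a is shown first because its seed sets the reading of every sign here. The other sequences are seed sites in translation factor genes, chosen because these genes passed the test or, for Eif4e, because it holds an 8mer. Capitals mark the seed in the microRNA and the pairing site in each mRNA.
mmu-miR-148a-3p: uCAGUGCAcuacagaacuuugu
Eif4ebp2: tgggtgccaaataatgggagatgTGCACTG
Eif6: tccccccacactctggccttagcTGCACTG
Eif3a: aatcatatataatagattgatcaTGCACTG
Eif4e3: aagggcgaatttttaattcccctTGCACTG
Eif4b: ggtcctaggcctgctgtgcaggaGCACTGA
Eif4e: gcctcatcaaagcagagtggacTGCACTGA
The microRNA sequence is from RefSeq (GRCm38.p6, chr6:51269829-51269850, minus strand), and the sites are from the longest 3' UTR of each gene in GENCODE M21 (GRCm38). The windows lie in 3' UTR exons at chr10:61433665-61433694 (Eif4ebp2, minus strand), chr2:155825427-155825456 (Eif6, minus strand) and chr19:60761912-60761941 (Eif3a, minus strand). The others are at chr6:99625673-99625702 (Eif4e3, minus strand), chr15:102096728-102096757 (Eif4b, plus strand) and chr3:138555572-138555601 (Eif4e, plus strand). The authors' build was mm9, so these coordinates belong to the reference, not to the table.

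In the table as deposited, the 1453 tested genes with a 7mer-m8 (TGCACTG) or an 8mer (TGCACTGA) had a median log2 fold change of 0.07, and the 8421 without one had -0.01 (-0.0071). Genes with sites thus lay higher as deposited. The deposited values are read here as control over miR-148a, the word order of the table's title, and their sign is turned. A positive log2 fold change below means higher with miR-148a. All directions below depend on this choice, and if it is wrong each of them is the opposite. Genes with sites also have longer UTRs, with a median of 2285 bases for an 8mer and 730 bases for genes with no site, and the classes were not matched on length.

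Counted over all translation factors, the share that changed was near that of all genes, and the changes were small. Of 60 tested members 9 were higher with miR-148a, 10 were lower and 41 did not pass an adjusted p of 0.05 by the authors' deposited table. In bulk RNA, a change in the cells present and one in RNA per cell cannot be told apart. With values recentred on abundant genes, and p-values adjusted over 1 row per gene, the split was 7 higher and 13 lower. The 31.7% called stand beside 33.5% of all tested genes, with 16.7% of all genes higher and 16.8% lower. Abundant genes are called more often, so the 36 members with a base mean of at least 1000 are set against genes above that cut. Of them 17 passed (47.2%), against 55.8% of 3569 such genes. The match is partial: the median base mean was 9603 in these members and 2824 in those genes. The median log2 fold change was 0.04 in these members and 0.05 over those genes. Sizes were smaller than in the table as a whole: the median size of the log2 fold change was 0.14 in the 36 abundant members and 0.22 in abundant genes in general. At a base mean of at least 1000, 1 of the 36 members reached 1.5-fold (2.78%), against 12.8% of all such genes. Of the 60 members, 2 did so (3.33%), against 19.4% of all tested genes. They were Eif2ak3, which passed, and the weakly counted Eif3k, which did not.

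**Figure D1:**
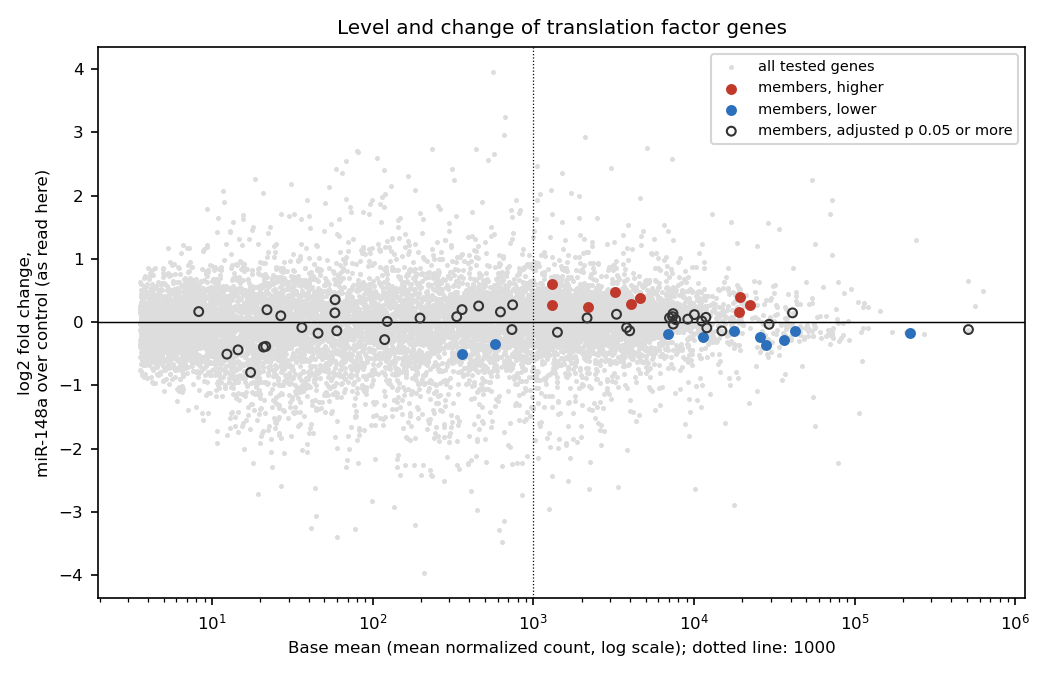
Log2 fold change (miR-148a over control, as read here) against base mean on a log scale, for all 11038 tested genes (grey) and the 60 tested translation factor genes (coloured where the adjusted p was under 0.05, open where not). The members lie in a narrow band around 0, and 17 of the 19 that passed have a base mean of at least 1000.

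Several of the best known translation factors could not be read, and the number of RefSeq transcripts of a gene marks which. Of 49 members with 1 row in the table, 44 had an adjusted p and 35 had a base mean of at least 1000. Of 23 members with 2 or more rows, 16 had an adjusted p and 1, Eif2ak3, reached that level. Their 83 rows were at 0 in 60.2%, as were 73.9% of the rows of all genes with several transcripts. Eif4a1, the main cap helicase, was listed at 0 in both of its rows by the authors' deposited table. Eif4e, the cap-binding protein, had a base mean of 0.939 and Eif4g1, the scaffold that joins both, had 0.622 by the authors' deposited table. Eif5a, whose protein eases peptide bond formation at difficult sequences, had 9 rows and a highest base mean of 21.6 by the authors' deposited table. Eef1d, an exchange factor subunit for eEF1A, had 8 rows and reached 26.8 there. These are genes that growing cells use throughout, so such values do not measure their level, and the cause of the low values was not tested.

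The 12 members without an adjusted p were Eif4a1, Eif4a3l1, Eif4e1b, Eif3j1, Eif3j2 and Eef1akmt4-ece2, listed at 0, and Eif2ak4, Eif2s3y, Eif4e, Eif4g1, Eef1a2 and Eif2c5, with base means from 0.482 to 3.38 by the authors' deposited table. Eif2ak4 is the amino acid sensor kinase GCN2, and Eef1a2 is the eEF1A form of muscle and neurons.

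**Figure D2:**
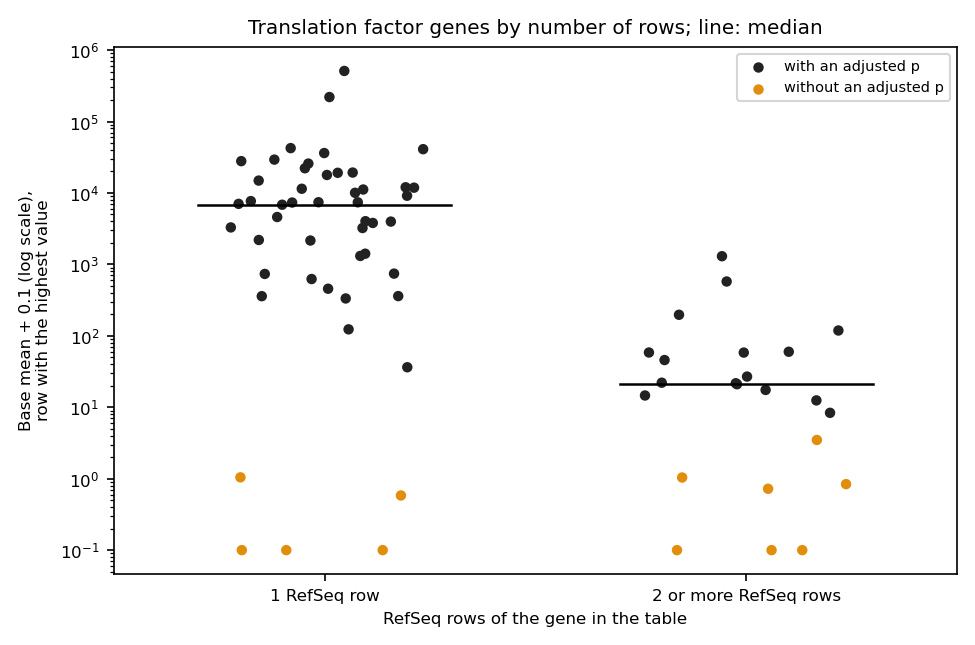
Base mean plus 0.1 (log scale) of the highest row of each of the 72 genes, split by whether the gene has 1 RefSeq row (49 genes) or 2 or more (23 genes) in the table. Lines are medians, at base means of 6845 and 20.9, and orange points had no adjusted p.

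Of the genes of the eIF2 cycle, Eif2b5, Eif2b1 and Eif2s2 rose. eIF2 is a GTPase of 3 subunits. Its beta subunit gene Eif2s2 was 1.12-fold higher in miR-148a cells (0.16 ± 0.06 SE on the log2 scale, adjusted p = 0.0378, base mean 19163) by the authors' deposited table. The alpha subunit gene Eif2s1, whose protein the stress kinases phosphorylate, had 0.13 ± 0.07 SE and the gamma subunit gene Eif2s3x 0.04 ± 0.06 SE there, and neither passed (adjusted p = 0.141 and 0.688). The eIF2B complex reloads eIF2 with GTP. Its catalytic epsilon subunit gene Eif2b5 rose (0.38 ± 0.06 SE, adjusted p = 4.4e-09, base mean 4606), and the regulatory alpha subunit gene Eif2b1 rose 1.18-fold (0.24 ± 0.08 SE, adjusted p = 0.0138) by the authors' deposited table. Eif2b2, the beta subunit gene, had 0.13 ± 0.07 SE and did not pass (adjusted p = 0.178). Eif2b3 and Eif2b4 had base means of 59.8 and 20.9 and standard errors of 0.29 and 0.37, too wide for a change of the size seen in Eif2b5. Eif2a and Eif2d, which can place initiator tRNA without eIF2, did not pass, at log2 fold changes of -0.08 ± 0.07 SE and 0.17 ± 0.39 SE by the authors' deposited table. In sum 3 of 10 tested genes of this group rose and none fell, with a median of 0.13. Over all tested genes 16.7% were higher, and at base means of 1000 or more, as 7 of the 10 have, 31.7% were higher and 24.2% lower, so the count is near that of other genes. The calls of Eif2s2 and Eif2b1 were lost when values were recentred on abundant genes (adjusted p = 0.166 and 0.0544).

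The eIF2 kinase genes held the largest change of all members that passed. Eif2ak3, which encodes PERK, the kinase of endoplasmic reticulum stress, rose 1.52-fold (0.60 ± 0.09 SE, adjusted p = 9.51e-11, base mean 1302) by the authors' deposited table. Eif2ak2, the double-stranded RNA sensor PKR, rose 1.21-fold (0.27 ± 0.10 SE, adjusted p = 0.0154, base mean 1314) there. Eif2ak1, the heme-regulated kinase HRI, did not pass (0.07 ± 0.08 SE, 95% interval -0.09 to 0.23). These kinases are regulated mainly as proteins, which an mRNA level does not measure.

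Of 11 tested genes of the eIF2 phosphatase and ATF4 target list, 3 rose and 3 fell by the authors' deposited table. Of the 8 with a base mean of at least 1000 these are 75% called, against 55.8% of all genes of that level. Both genes that direct phosphatase to eIF2 changed, in opposite directions. The constitutive Ppp1r15b rose (0.55 ± 0.07 SE, adjusted p = 2.93e-14), and the stress-induced Ppp1r15a, also called GADD34, fell (-0.48 ± 0.07 SE, adjusted p = 1.99e-11) by the authors' deposited table. Among the ATF4 targets, Phgdh of serine synthesis (0.47 ± 0.07 SE) and Chac1, a glutathione-degrading enzyme (0.47 ± 0.09 SE), rose, while Trib3 (-0.58 ± 0.20 SE), a pseudokinase, fell there, as did the asparagine synthetase gene Asns (-0.34 ± 0.07 SE). The row of Atf4 itself had a base mean of 1.08 and no adjusted p.

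Among the subunits of eIF3, the largest initiation complex, the genes moved apart. Levels of the 11 subunit genes with a single row above 0 ran from 5034 normalized counts per kilobase in Eif3a to 13795 in Eif3h. Eif3b, a core scaffold subunit, rose 1.31-fold (log2 fold change 0.39 ± 0.06 SE, adjusted p = 2.38e-11, base mean 19321) by the authors' deposited table. Eif3a, another large core subunit, fell (-0.24 ± 0.06 SE, adjusted p = 0.00023, base mean 25799) there. Eif3e fell with it (-0.23 ± 0.07 SE, adjusted p = 0.00307), and Eif3h fell by 0.14 on the log2 scale (0.06 SE, adjusted p = 0.0401) by the authors' deposited table. The intervals of Eif3b (0.28 to 0.50) and Eif3a (-0.35 to -0.12) do not overlap. The call of Eif3h was lost when values were recentred on the median of all tested genes (adjusted p = 0.0598). Eif3c, the most abundant at a base mean of 41046, had 0.15 ± 0.06 SE and missed the threshold (adjusted p = 0.0515), as did Eif3f at -0.14 ± 0.06 SE (adjusted p = 0.0564). The genes of the subunits d, g, i, l and m lay between -0.03 and 0.09 and did not pass by the authors' deposited table. Eif3k had a base mean of only 17.4, and its value of -0.79 ± 0.38 SE did not pass (adjusted p = 0.1). In all 1 of 12 tested eIF3 genes rose and 3 fell, with a median of -0.01 (-0.0056). These 33.3% called are close to the 33.5% of all tested genes. Of the 11 with a base mean of at least 1000, 36.4% were called, against 55.8% of all genes of that level.

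**Figure D3:**
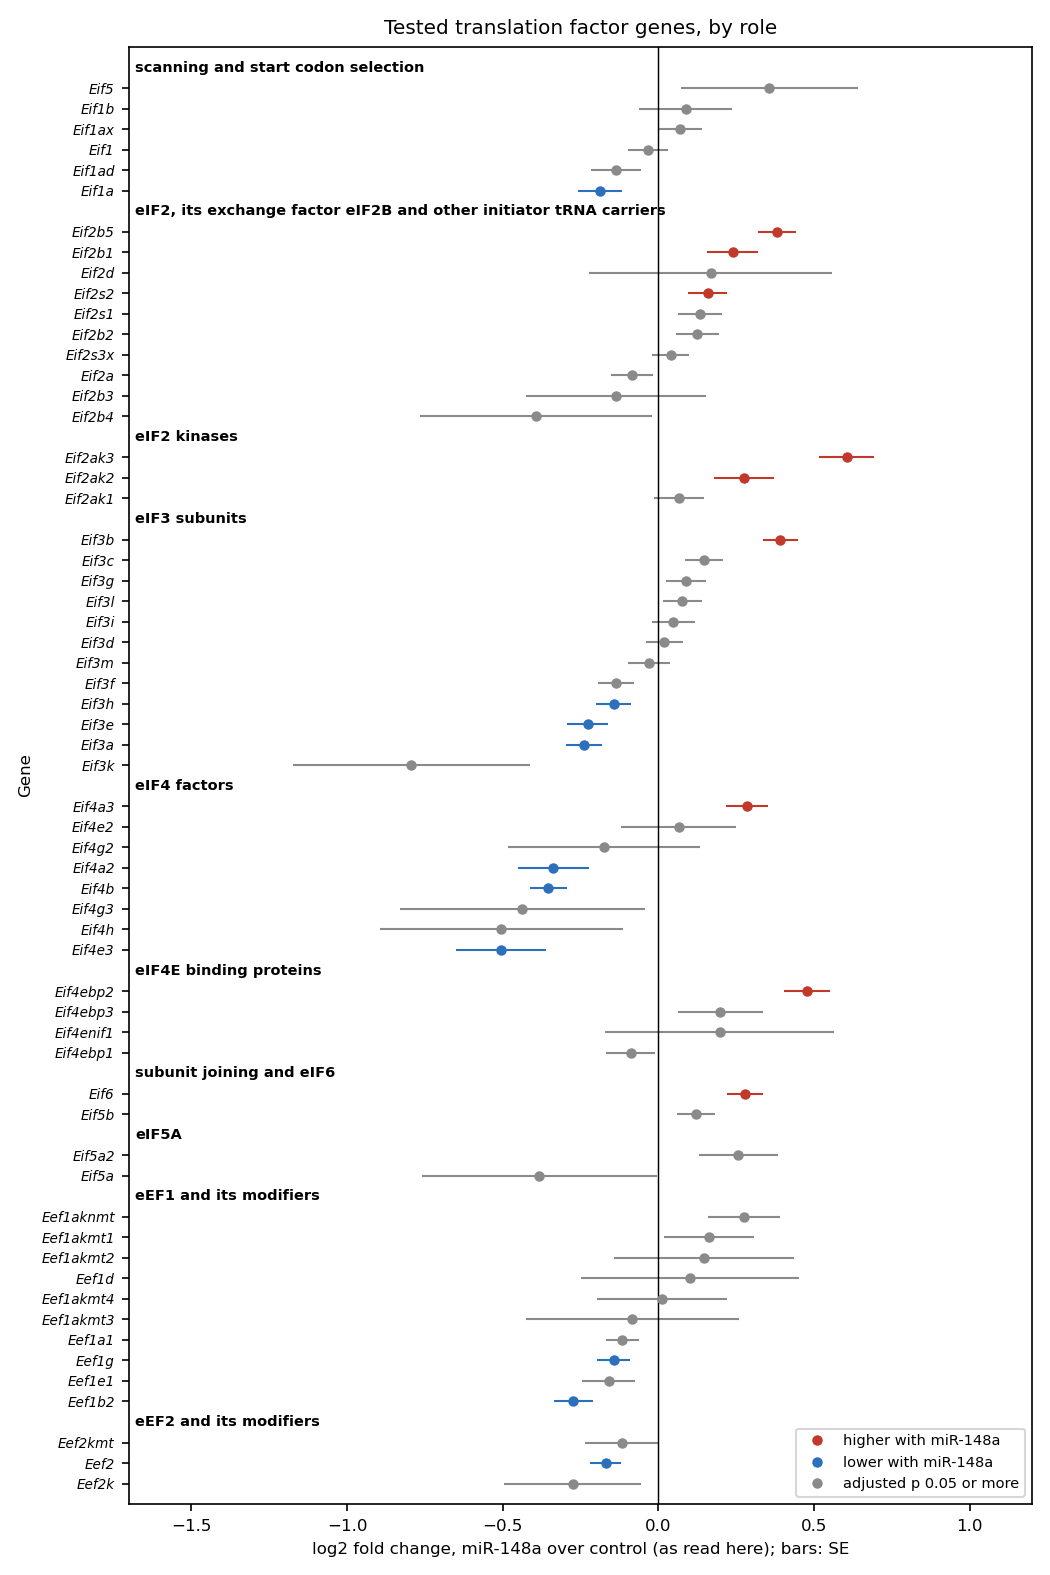
Log2 fold change (miR-148a over control, as read here) with the authors' standard error for each of the 60 tested genes, grouped by role (red higher, blue lower at an adjusted p under 0.05, grey not passed). The eIF2 kinase and eIF2B genes that passed lie right of 0, and the elongation factor genes that passed lie left of it.

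In the eIF4 group, which binds the cap and unwinds the mRNA, 3 of 8 tested genes fell and 1 rose. Over all tested genes 16.8% were lower and 16.7% higher, and with 8 genes, of which 2 had a base mean of at least 1000 (1 higher, 1 lower), the count says little about the group. Eif4b, the cofactor that stimulates the helicase eIF4A, fell 1.28-fold (-0.35 ± 0.06 SE, adjusted p = 4.01e-08, base mean 27906) by the authors' deposited table. It was the largest fall among members with a base mean of at least 1000. Eif4a2, the second cytoplasmic eIF4A helicase gene, fell 1.26-fold (-0.34 ± 0.11 SE, adjusted p = 0.0117) by 1 of its 6 rows, the other 5 being listed at 0. That value describes 1 transcript, not the gene. Eif4e3, a relative of the cap-binding protein that competes with it, fell 1.42-fold at a base mean of 359 (-0.51 ± 0.14 SE, adjusted p = 0.00229) by the authors' deposited table. Eif4a3 rose 1.22-fold (0.28 ± 0.07 SE, adjusted p = 0.000167, base mean 4029) there. Despite its name, Eif4a3 is the helicase of the exon junction complex, which marks spliced mRNA. Eif4e2, Eif4g2, Eif4g3 and Eif4h had base means from 12.4 to 197 and did not pass.

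The 3 genes of the eIF4E binding proteins, which block the assembly of eIF4F until mTORC1 phosphorylates them, differed. Eif4ebp2 rose 1.39-fold (0.48 ± 0.07 SE, adjusted p = 1.1e-09, base mean 3232) by the authors' deposited table, the second highest of all members. Eif4ebp1, with the highest base mean of them, 12016, had -0.09 ± 0.08 SE and did not pass (adjusted p = 0.437, 95% interval -0.24 to 0.06). That interval does not overlap the one of Eif4ebp2, 0.33 to 0.62. Eif4ebp3 had 0.20 ± 0.14 SE at a base mean of 360, and the shuttling protein gene Eif4enif1 had 0.20 ± 0.37 SE at 22.0 by the authors' deposited table. Neither passed.

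Of the genes for later steps, Eif6 rose 1.21-fold (0.28 ± 0.06 SE, adjusted p = 1.21e-05, base mean 22191) by the authors' deposited table. Its protein helps build the large ribosomal subunit and keeps it from joining too early. Eif5b, the GTPase of subunit joining, had 0.12 ± 0.06 SE and did not pass (adjusted p = 0.13). Among the genes of scanning and start codon choice, 1 of 6 passed (16.7%), against 33.5% of all tested genes. Eif1a fell (-0.19 ± 0.07 SE, adjusted p = 0.026, base mean 6845), and its close paralog Eif1ax had 0.07 ± 0.07 SE (adjusted p = 0.537) by the authors' deposited table. Reads of such paralogs may be split between them, so both values are uncertain. Eif1, which guards start codon choice, had -0.03 ± 0.06 SE at a base mean of 29317. The paralog of Eif5a, Eif5a2, had 0.26 ± 0.13 SE (adjusted p = 0.114), and Eif5a had -0.38 ± 0.38 SE by the authors' deposited table. Neither passed.

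The core elongation factor genes were lower or did not pass. Eef1a1 and Eef2 were the members with the highest level per kilobase: Eef1a1 had 284724 normalized counts per kilobase and Eef2 71306, against 14794 for Eif6, the highest of the initiation factor genes that rose. Eef2, the translocase, fell 1.12-fold (-0.17 ± 0.05 SE, adjusted p = 0.00358, base mean 220265) by the authors' deposited table. Eef1b2 and Eef1g, subunits of the exchange factor that recharges eEF1A, fell 1.21-fold (-0.27 ± 0.06 SE, adjusted p = 7.47e-05) and 1.11-fold (-0.14 ± 0.05 SE, adjusted p = 0.0192) there. Eef1a1 had -0.12 ± 0.05 SE at a base mean of 510794 and did not pass (adjusted p = 0.0802). It did pass when values were recentred on abundant genes (-0.16, adjusted p = 0.00872). Processed pseudogenes of Eef1a1 are numerous, and reads they share with it make its value uncertain. Eef1e1, which belongs to the multi-synthetase complex, had -0.16 ± 0.09 SE (adjusted p = 0.153).

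The enzymes that modify elongation factors did not pass. Eef2k, the kinase that inactivates eEF2, had -0.28 ± 0.22 SE at a base mean of 119 and Eef2kmt, its methyltransferase, -0.12 ± 0.12 SE by the authors' deposited table. The eEF1A methyltransferase genes Eef1akmt1, Eef1akmt2, Eef1akmt3 and Eef1akmt4 lay between -0.08 and 0.16. Eef1aknmt, which methylates the start of eEF1A, had 0.27 ± 0.11 SE and missed the threshold (adjusted p = 0.0522).

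Mammalian mRNAs of the elongation factors and of the eIF3 subunits e, f and h are known to begin with a 5' terminal oligopyrimidine (TOP) tract, a feature they share with ribosomal protein mRNAs and through which mTORC1 governs their translation. This set was assembled after the values were seen, so it is given as a description with no test. Of its 9 genes 8 were tested: 5 fell, none rose and 3 did not pass, with a median log2 fold change of -0.14 by the authors' deposited table. All 7 with a base mean of at least 1000 had negative values, from -0.27 (Eef1b2) to -0.12 (Eef1a1). Among the other 29 members of that level, 9 rose and 3 fell (Eif4b, Eif3a and Eif1a), with a median of 0.08. The set may be incomplete, so these others may include TOP mRNAs, and the contrast depends on which genes were put in it. Over all genes of that level 31.7% were higher and 24.2% lower.

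Members with and without seed sites for miR-148a were found among those that rose and those that fell. Of 68 members with an annotated 3' UTR, 19 held a 7mer-m8, an 8mer or a 7mer-A1 (GCACTGA). Among 9874 tested genes with such a UTR, 2102 held at least 1 of these 3 kinds. An 8mer contains both 7mers, and of those 9874 genes 14.7% held TGCACTG, 12.5% GCACTGA and 4.11% TGCACTGA, searched on the mRNA strand only. Of the 16 members with a site of these kinds and an adjusted p, 2 rose and 3 fell by the authors' deposited table. Of the 43 with a shared 6mer (GCACTG) alone or no site, 7 rose and 7 fell. Over all tested genes 14.8% with such a 7mer or 8mer were higher and 22.5% lower, and 18.7% of the others were higher and 16.2% lower, so the members' counts are near those shares. Eif4ebp2 and Eif6, both shown above, rose although each holds a 7mer-m8, which starts at base 126 of 5306 and at base 639 of 906 of the UTR. Eif4ebp2 has another 2 sites of the 7mer-A1 kind. The longest UTR of a gene need not belong to the transcript that was measured. For Eif4ebp2 the transcript matched to the measured row has 1422 bases, fewer than this UTR, so its value and its sites may belong to different transcripts. Eif3a (base 163 of 964) and Eif4e3 (base 1328 of 1872) fell with a 7mer-m8, and Eif4b (base 1418 of 1840) fell with a 7mer-A1. An 8mer was found in Eif4e, Eif4h and Eef1akmt4, of which the first was not tested and the others did not pass. Because the sign of the table was set with these sites over all genes, the members are not independent evidence on it.

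**Figure D4:**
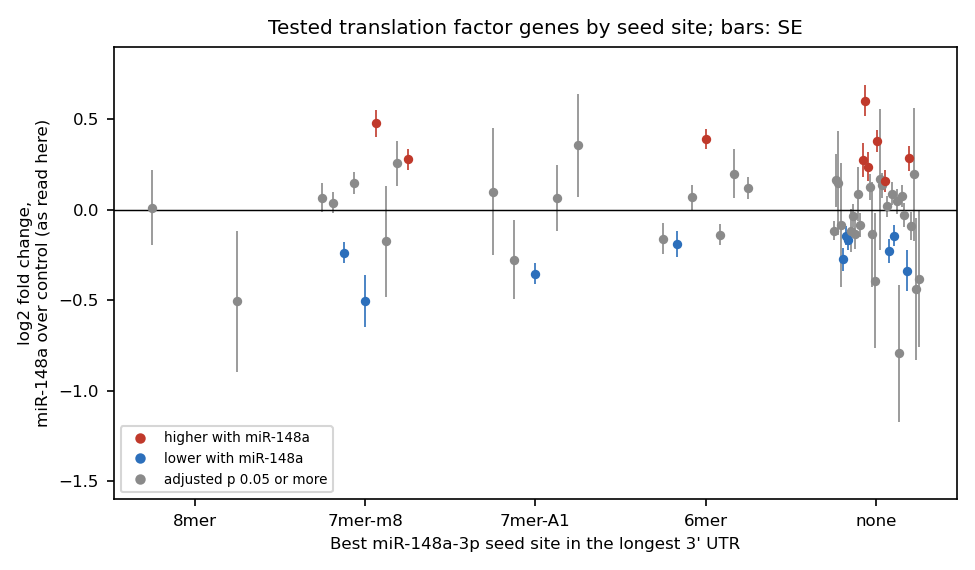
Log2 fold change (miR-148a over control, as read here) with the authors' standard error of the tested members by the best miR-148a-3p seed site in the longest 3' UTR. Genes that rose and genes that fell stand side by side among the 9 with a 7mer-m8, 2 of each.

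The lists of neighbouring steps of protein synthesis were counted in the same way (1 gene is in 2 lists). Of 72 tested genes in 10 lists, 19 rose and 8 fell by the authors' deposited table (37.5%, against 33.5% of all tested genes), with a median of 0.11, against -0.01 over all tested genes. Their base means are higher than those of most genes. Of the 40 with a base mean of at least 1000, 19 rose and 6 fell (62.5%, median 0.13), against 55.8% called, 31.7% higher and a median of 0.05 over all genes of that level. No test of the difference was made. In the list of non-canonical initiation and reinitiation, 4 of 7 rose and none fell, against 16.7% higher and 16.8% lower over all tested genes. At a base mean of at least 1000, 4 of its 5 genes rose, against 31.7% of all such genes. Abcf3 (0.42 ± 0.08 SE) and Abcf1 (0.31 ± 0.06 SE), ATP-binding proteins of the ribosome, were the highest that passed by the authors' deposited table. Denr, which recycles ribosomes for reinitiation (0.25 ± 0.07 SE), and the helicase gene Dhx29 (0.24 ± 0.08 SE) also rose there. In the mTORC1 list 5 of 13 rose and 2 fell. At a base mean of at least 1000, 5 of its 7 genes rose and 1 fell, against 31.7% higher and 24.2% lower over all such genes. Ddit4, an inhibitor of mTORC1 also known as REDD1, rose 0.66 ± 0.06 SE (adjusted p = 1.9e-27), and the kinase gene Mtor itself rose 0.28 ± 0.07 SE by the authors' deposited table. The arginine sensor Castor1 (-0.58 ± 0.15 SE) and the GTPase Rraga (-0.22 ± 0.06 SE) fell there. The rows of Tsc1, Tsc2, Rptor and Mlst8 were listed at 0.

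Of the cytosolic aminoacyl-tRNA synthetases and their scaffold genes, 4 of 13 rose and 1 fell. At a base mean of at least 1000, 40% of 10 were higher and 10% lower, against 31.7% and 24.2% of all such genes. The shares over all tested genes, 16.7% higher and 16.8% lower, stand beside each count that follows. Vars (0.49 ± 0.06 SE) and Iars (0.31 ± 0.06 SE), which charge valine and isoleucine tRNA, rose most, and Qars, for glutamine, fell (-0.24 ± 0.07 SE) by the authors' deposited table. Pabpc1, the main cytoplasmic poly(A)-binding protein, fell (-0.23 ± 0.06 SE, adjusted p = 0.000454) and was the only one of 6 in its list to pass. Of the 2 enzymes that make the hypusine of eIF5A, Dohh rose (0.32 ± 0.07 SE) and Dhps did not pass (-0.04 ± 0.09 SE) by the authors' deposited table. In the termination list Ltn1, a ubiquitin ligase of stalled ribosomes, rose (0.28 ± 0.07 SE), and the other 5 tested, among them the release factor gene Etf1 (0.03 ± 0.05 SE), did not pass. None of 4 tested genes passed among the kinases and inhibitors acting on eIF4F, where Ddx3x had 0.08 ± 0.06 SE and Mknk2 0.13 ± 0.07 SE. None of 4 passed in the selenocysteine and diphthamide list, where Dph5 had -0.22 ± 0.12 SE and Dph2 -0.18 ± 0.13 SE by the authors' deposited table. Of 7 mitochondrial translation factors Gfm1, an elongation factor, rose (0.45 ± 0.08 SE) and its relative Gfm2, which recycles ribosomes, fell (-0.74 ± 0.26 SE, base mean 76.4) there.

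**Figure D5:**
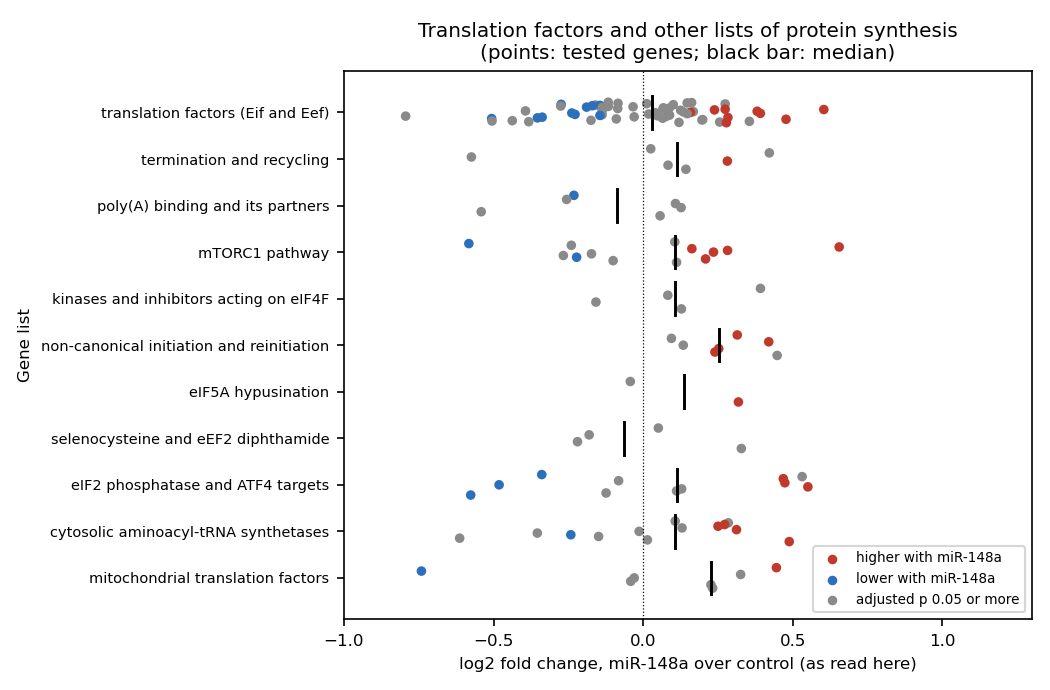
Log2 fold change (miR-148a over control, as read here) of the tested genes of each list, with black bars at the median. Translation factors lie on both sides of 0 (median 0.03), and the 7 tested genes of non-canonical initiation all lie right of 0. Of these 7, 3 did not pass, among them Abcf2 and Mcts1, with base means of 11.9 and 20.6 and SEs of 0.39 and 0.38.

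The authors' deposited table of gene ontology categories lists translation initiation factor activity with 2 changed genes of 5 and translation elongation factor activity with 2 of 3. The adjusted p of over-representation was 1 for both. Formation of translation preinitiation complex had 1 changed gene of 5, formation of cytoplasmic translation initiation complex 0 of 2 and cytoplasmic translational initiation 1 of 1. The categories hold far fewer genes than the members described here. The sources used here do not state the authors' rule for a changed gene. Cytoplasmic translation, named after its values were seen, had 14 of 17 (adjusted p = 0.00179) by the authors' deposited table.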

How the data were processed

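RNA sequencing covered 3 pro-miR-148a and 3 miR-Control libraries. Per the submitters' processing notes, DESeq2 and the build mm9 were used. Aligner, read counter and annotation: not given in the sources used. Per the file headers, the authors deposited a signal per transcript (base mean, the mean normalized count) in 42885 rows. The log2 fold changes were computed by the authors before they were deposited, per the file headers. The deposited columns also hold the standard error and a Wald score. The authors' p-values come raw and adjusted. In their GO table the authors deposited the count of changed genes and of members of each category.

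Depth per library is unknown, and no test was run here on members: the authors' adjusted p under 0.05 is the call. Transcripts were paired with symbols through RefSeq accessions (42739 matched, GRCm38.p6), and each gene is its row with the highest base mean. Intervals are 95% normal intervals from the deposited standard error. Transcript lengths and 3' UTRs (at least 20 bases) came from GENCODE M21. The members, lists and roles were chosen with earlier results of these data known. Named are members that passed, the 2 most abundant of each role, and up to 2 list genes in each direction, and the remaining genes with values were chosen after their values were seen. Alternatives were another row per gene, recentring with a Wald test, thresholds and filters, computed with Python 3.11.15, pandas 2.3.3 and scipy 1.17.1. The recentring step was tried on simulated data in which few genes changed. Many genes were called here, so that trial does not show which centre is right.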

Additional observations from a re-analysis of the deposited data

How the results depend on the processing

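Of the 9 members that rose and the 10 that fell, 6 and 6 remained at an adjusted p under 0.01, and 4 and 3 with a log2 fold change of at least 0.32 in size. These are 12 and 7 of the 60 tested members. At the same cuts 26.1% and 25.6% of all tested genes were called. With p-values adjusted over 1 row per gene and no recentring, 11 rose and 10 fell. The recentred counts use that adjustment too, so they are to be set beside these. With values recentred on the median of all tested genes, 11 rose and 9 fell. Recentred on the abundant genes (base mean 1000 or more, median 0.05), 7 rose and 13 fell, so the split of the members moves with the choice of centre. Under that centre the log2 fold change of Eif2s3x, which did not pass, changed sign to -0.01 (-0.0054). The median over members ranged from -0.02 to 0.05 over the settings tried. Taking the row with the lowest p per gene, a base mean of at least 100, or only genes with 1 RefSeq row gave 8 or 9 higher and 9 or 10 lower. No paired analysis was possible because the table has no column per library, and for the same reason no replicate could be left out. Members with a base mean under 100 had a median standard error of 0.37, so changes of the size seen here could not be detected in them.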
